A study of Mus musculus with 9 samples.

Results

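Adhesion molecules of leukocyte trafficking were followed in monocytes sorted from the blood and the brain of a mouse model of neuromyelitis optica (NMO), an autoimmune disease in which antibodies against the astrocyte water channel aquaporin 4 (NMO-IgG) injure astrocytes. The 9 genes were taken by symbol from the 23238 gene symbols of the count tables: the integrin α chains Itgam, Itgal, Itgax and Itga4, the integrin β chains Itgb1, Itgb2 and Itgb7, the selectin ligand Selplg and the junctional molecule Pecam1. All 9 were found and all 9 were among the 10107 genes that passed the expression filter and were tested. The 3 groups were compared, all of wild-type (WT) female C57BL/6N mice of 12 weeks, sampled at 1 day. Nor_Bl_mono was blood monocytes of non-treated mice, NMO_Bl_mono was blood monocytes of mice given NMO-IgG with human complement into the striatum of 1 hemisphere, and NMO_Br_mono was monocytes from the brain of mice with that injection. Each group had 3 libraries and each library came from a pool of 5 mice, so differences between single animals were not measured. No normal brain library and no library of a sham injection was analysed here, and blood mononuclear cells came from a density gradient while brain cells came from enzyme-digested tissue cleared of myelin in Percoll, so the organ and the isolation cannot be told apart. The study gives the sort as CD45+CD11b+P2ry12-Ly6C+Ly6G-, and its methods state Ly6C high. CD11b is the protein of Itgam, which means that the cells were selected on 1 of the 9 molecules.

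A leukocyte leaves the blood in steps. It is caught and rolls on selectins of the vessel wall through glycosylated ligands such as PSGL-1, the product of Selplg. Integrins, each made of an α and a β chain, are then switched on from inside the cell, bind ICAM-1 or VCAM-1 and bring the cell to arrest, after which it crosses the vessel wall with the help of junctional molecules such as PECAM-1. The β2 chain (Itgb2) pairs with αL (Itgal) to make LFA-1, with αM (Itgam) to make Mac-1 and with αX (Itgax) to make CD11c/CD18. The α4 chain (Itga4) pairs with β1 (Itgb1) to make VLA-4, the receptor of VCAM-1 that is known for leukocyte entry into the inflamed brain, or with β7 (Itgb7) to make the receptor of the gut address molecule MAdCAM-1.

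The libraries held between 7584649 and 10419647 counts, of which 28.4% to 43.6% fell on the ribosomal RNA symbol Rn45s. Levels are given as CPM, each count divided by its library total scaled with edgeR's TMM factors, which ranged from 0.800 to 1.46, and a limit of 3 counts corresponded to 0.273 to 0.432 CPM. Such limits cover counting error only. NMO_Bl_mono replicate 3 had 4567 genes with a count and NMO_Br_mono replicate 2 had 6473, against 7495 to 11556 in the other libraries, and these were the libraries farthest from all others. The fitted comparisons were therefore also made without both, but the shares and ratios of reads given later were not. The 7 monocyte markers summed to 3388 to 4412 CPM in Nor_Bl_mono, 2735 to 4778 CPM in NMO_Bl_mono and 3559.7 to 6092 CPM in NMO_Br_mono, with Csf1r, Ccr2 and Lyz2 present in all 9 libraries. Ly6c2, a transcript of the Ly6C antigen of the sort, averaged 632 ± 124 CPM in NMO_Bl_mono (SD, n = 3), and in NMO_Br_mono the mean was 232 ± 191 CPM. Ly6c1, the other Ly6C gene among the sorting markers, went the other way in its means, 92.7 ± 94.7 CPM and 138 ± 159 CPM. Its NMO_Br_mono libraries ranged from 5.90 to 315 CPM. Transcripts of other cells differed between blood and brain, and their values are given beside the genes they move with. In bulk samples, fewer cells of a type and less RNA per cell cannot be told apart.

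Between brain and blood monocytes, 1 of the 9 genes stood apart: Itga4, the α4 chain, was about 5 times lower in the brain. The values of Itgam in NMO_Br_mono all lay above those in blood, but by a difference that did not pass the test. The other 7 genes differed between NMO_Br_mono and NMO_Bl_mono by less than their spread. In edgeR's quasi-likelihood test with Benjamini-Hochberg adjustment over all genes, 0 of 9 genes passed an adjusted p of 0.05 between NMO_Br_mono and NMO_Bl_mono, where 0.247% of all genes tested did. DESeq2 called 1 (Itga4) and limma-voom 0. At the unadjusted threshold that the study used, p below 0.05 and at least 1.2-fold, 1 of 9 passed (Itga4), against 5.32% of all genes. Values of the groups did not overlap for 2 of 9 (Itgam and Itga4), against 12.3% of all genes. The 9 genes divided into 4 higher and 5 lower, with a median log2 fold change of -0.015 beside 0.051 over all genes.

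**Figure D1:**
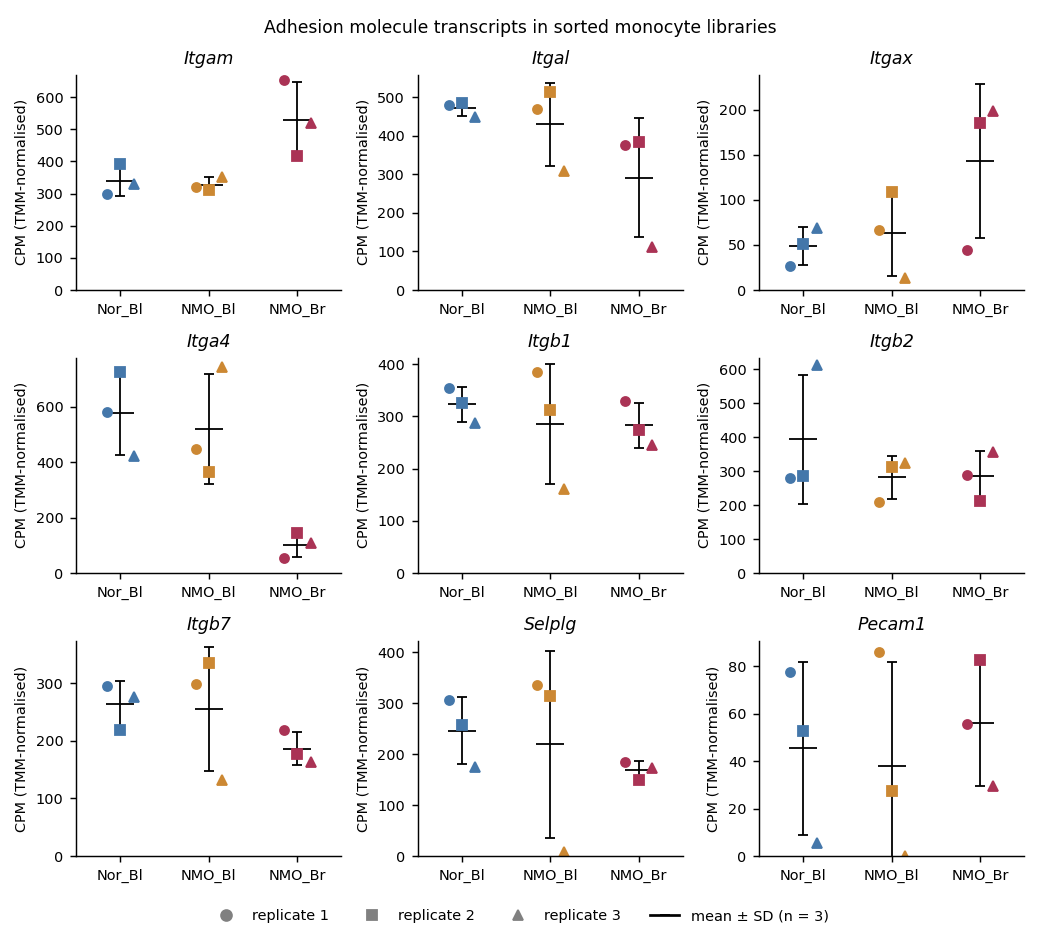
Level of each of the 9 adhesion molecules in CPM (y axis, linear, from 0) in the 3 groups (x axis, group names shortened). Each point is 1 library, its shape gives the replicate number, and the bar is the mean ± SD of 3 libraries, drawn down to 0 where the SD is larger than the mean. All 3 NMO_Br_mono points of Itga4 lie below all blood points, those of Itgam lie above them, and NMO_Bl_mono replicate 3 is the lowest point for Itgax, Itgb1, Itgb7, Selplg and Pecam1.

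Itga4 (gene ID 16401, chromosome 2, 79255426 to 79333114 in GRCm38.p6) was measured at 581, 727 and 423 CPM in Nor_Bl_mono replicates 1 to 3 and at 449, 366 and 744 CPM in NMO_Bl_mono. In NMO_Br_mono it was 54.4, 143 and 107 CPM. The highest brain library lay below the lowest blood library, while the blood groups overlapped. The log2 fold change between NMO_Br_mono and NMO_Bl_mono was -2.35 (standard error, SE, 0.49, 95% interval -3.40 to -1.31), a fold of 0.196, with an unadjusted p of 0.000277 and an edgeR adjusted p of 0.0823. Against Nor_Bl_mono it was -2.50 (SE 0.49), with an adjusted p of 0.0642 in edgeR. These comparisons share the NMO_Br_mono libraries and are not independent. Compared with the average of the blood groups, an analysis added after the data were seen, Itga4 was the only one of the 9 with an adjusted p under 0.05 in edgeR (log2 fold change -2.43, SE 0.46, adjusted p = 0.0347), where 0.435% of all genes tested passed. That call was lost without Nor_Bl_mono replicate 2 (adjusted p = 0.0640), Nor_Bl_mono replicate 3 (0.0598), NMO_Br_mono replicate 1 (0.0967) or NMO_Br_mono replicate 3 (0.120), with the log2 fold change between -2.13 and -2.50 in these edgeR fits. Without NMO_Bl_mono replicate 3 and NMO_Br_mono replicate 2 together, the log2 fold change against NMO_Bl_mono was -2.32 (edgeR adjusted p = 0.0586) and that against Nor_Bl_mono was -2.82 (0.0170).

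Lymphocytes also express Itga4, and transcripts of natural killer (NK) and T cells moved in the same direction. The 8 markers of these cells found in the tables, of 10 listed, summed to 1862 to 2157 CPM in Nor_Bl_mono and 2120.4 to 2750.1 CPM in NMO_Bl_mono, but to 29.2, 286 and 114 CPM in NMO_Br_mono replicates 1, 2 and 3. Gzma, the granzyme A gene of cytotoxic lymphocytes, held most of the blood sum with 1123 to 1811 CPM per library. The T cell receptor component Cd3e was at 0 in 7 of 9 libraries and reached at most 13.0 CPM. Cd3g of the same list reached 31.9 CPM in NMO_Bl_mono replicate 3, 9.09 CPM in Nor_Bl_mono and 7.92 CPM in NMO_Br_mono. Cd2 was 10.9 to 131 CPM in Nor_Bl_mono, 40.4 to 124 CPM in NMO_Bl_mono and 0 to 16.7 CPM in NMO_Br_mono. Within NMO_Br_mono, Itga4 and the summed markers stood in the same order. Within Nor_Bl_mono, where the sums were 2149.7 CPM, 1862 CPM and 2157 CPM in replicates 1 to 3, the order was the reverse of that of Itga4, and within NMO_Bl_mono both were highest in replicate 3 while replicates 1 and 2 ran opposite. The 10 platelet markers moved the same way, with 306 to 2125 CPM in Nor_Bl_mono, 354 to 2007.5 CPM in NMO_Bl_mono and 25.8 to 39.8 CPM in NMO_Br_mono, where 4 of the 10 (Gp9, Gp1ba, Treml1 and Tubb1) were at 0 in every library. The part of these cells in the Itga4 difference was not tested.

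**Figure D2:**
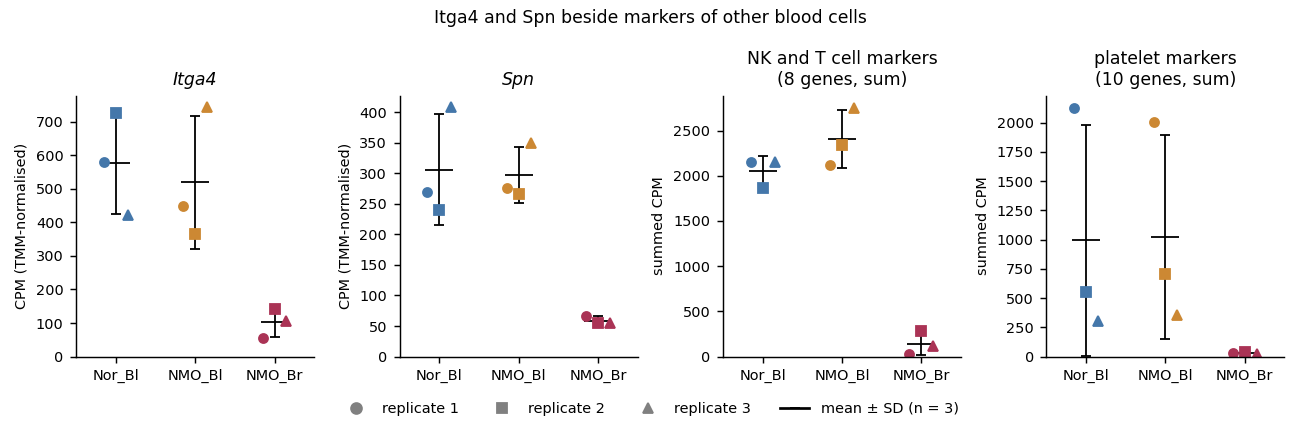
Itga4, Spn and the summed NK and T cell and platelet markers in CPM (y axes, linear, from 0) in the 3 groups (x axes). Points are libraries, with the replicate number as shape, and bars are the mean ± SD of 3 libraries. In all 4 panels the NMO_Br_mono points lie below the blood points, with Itga4 between 54.4 and 143 CPM and Spn between 54.3 and 67.0 CPM.

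Itgam (gene ID 16409, chromosome 7, 128062640 to 128118491) was 299, 391.5 and 329.9 CPM in Nor_Bl_mono and 321, 309.9 and 353 CPM in NMO_Bl_mono. It was 652, 415 and 520.2 CPM in NMO_Br_mono, above all 6 blood libraries. The log2 fold change against NMO_Bl_mono was 0.69 (SE 0.38, 95% interval -0.13 to 1.51, edgeR unadjusted p of 0.0912 and adjusted p of 0.830) and that against Nor_Bl_mono was 0.64 (SE 0.38, edgeR adjusted p = 0.852). In edgeR without NMO_Bl_mono replicate 3 the unadjusted p of the first was 0.0495, and without NMO_Br_mono replicate 2 it was 0.0492, while the adjusted p stayed at 0.677 and 0.949. Microglia, granulocytes and other myeloid cells also express Itgam, and the P2ry12- and Ly6G- gates of the sort are meant to remove microglia and neutrophils. The 8 microglia markers summed to 24.1 to 71.2 CPM in Nor_Bl_mono, 0 to 49.1 CPM in NMO_Bl_mono and 180.4 to 572 CPM in NMO_Br_mono, with Fcrls at 0 in all blood libraries and at 50.5 to 77.5 CPM in the brain. The 6 granulocyte markers summed to 82.8 to 259 CPM, 127 to 296 CPM and 384 to 1506 CPM in the same order of groups. S100a8 and S100a9, which monocytes also express, held most of the sum in each brain library, with 813 and 659.5 CPM in replicate 2. Retnlg of the same list was at 0 in all brain libraries and at 0 to 125 CPM in blood. Camp and Ltf went the other way. Camp was 85.0, 0 and 49.3 CPM in NMO_Br_mono replicates 1 to 3 and 0 to 24.6 CPM in blood. Ltf was 9.61, 0 and 11.3 CPM in these brain libraries and 0 in all blood libraries. Mmp8 overlapped, with 34.0 to 131 CPM in NMO_Br_mono and 0.818 to 140 CPM in NMO_Bl_mono. NMO_Br_mono replicate 1, the highest for Itgam, was the lowest of its group for the granulocyte markers. What these cells contribute to Itgam was not tested.

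The 250 bases before the annotated start of Itgam and of Itga4 are shown because these were the 2 genes whose groups did not overlap, in opposite directions. They come from RefSeq on GRCm38.p6, which held such a window for 5 of the 9 genes (Itga4, Itgam, Itgax, Itgb1 and Itgb7). Both lie on the plus strand, at chr7:128062390-128062639 for Itgam and chr2:79255176-79255425 for Itga4. Capitals mark the letters GAGGAA, or TTCCTC where they lie on the other strand, the core bound by PU.1, a transcription factor of the myeloid lineage.
Itgam: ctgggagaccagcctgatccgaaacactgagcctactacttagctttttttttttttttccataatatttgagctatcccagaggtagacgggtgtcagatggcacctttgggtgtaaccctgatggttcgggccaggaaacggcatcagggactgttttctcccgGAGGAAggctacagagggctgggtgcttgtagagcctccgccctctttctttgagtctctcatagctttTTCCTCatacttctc
Itga4: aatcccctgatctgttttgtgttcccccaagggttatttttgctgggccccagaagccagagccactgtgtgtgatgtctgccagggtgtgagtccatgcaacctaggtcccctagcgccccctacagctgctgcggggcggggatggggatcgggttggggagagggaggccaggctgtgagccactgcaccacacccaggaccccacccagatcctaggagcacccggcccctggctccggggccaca
The Itgam window held 2 matches, 1 on each strand, the first 84 bases before the start. The Itga4 window held 0. Of the other windows, that of Itgb1 held 1 match and those of Itgax and Itgb7 held 0. Of all 32851 windows of the same length, 23.3% held at least 1 match on either strand. The RUNX core TGTGGT occurred once in the Itga4 window, on the minus strand 60 bases before the start, and 0 times in that of Itgam, with 14.0% of all windows holding it. The SP box GGGCGG, also searched, had 1 match in both windows, on the plus strand for Itga4 and the minus strand for Itgam. Of all windows, 32.7% held it. The G and C content was 49.6% for Itgam and 64% for Itga4, beside a median of 52.4% over all windows. A match of letters is a description of the sequence and not of binding.

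Itgal, the αL chain of LFA-1 (gene ID 16408, chromosome 7, 127296139 to 127335137), was 479.9, 484 and 448 CPM in Nor_Bl_mono, 469, 513 and 309 CPM in NMO_Bl_mono and 376, 383 and 113 CPM in NMO_Br_mono. All brain libraries lay below the normal blood libraries, but NMO_Bl_mono replicate 3 lay within the brain range. The log2 fold change was -0.56 (SE 0.48, edgeR adjusted p = 1) against NMO_Bl_mono and -0.69 (SE 0.48, adjusted p = 1) against Nor_Bl_mono. Itgax, the αX chain known as CD11c on dendritic cells and activated macrophages (gene ID 16411, chromosome 7, 128129526 to 128150657, starting 11035 bases after the end of Itgam), was 26.3, 51.5 and 68.8 CPM in Nor_Bl_mono and 66.4, 109 and 13.5 CPM in NMO_Bl_mono. In NMO_Br_mono it was 44.8, 185 and 199 CPM, so that 2 of 3 brain libraries were above every blood library and the other was among them. Its log2 fold change was 1.18 (SE 0.95, edgeR adjusted p = 1) against NMO_Bl_mono. The 6 dendritic cell markers summed to 1021 CPM, 705 CPM and 822 CPM in Nor_Bl_mono replicates 1 to 3, to 773 CPM, 648 CPM and 71.3 CPM in NMO_Bl_mono and to 1101 CPM, 2625 CPM and 1089 CPM in NMO_Br_mono. In NMO_Bl_mono the library with the lowest sum also had the lowest Itgax, whereas in Nor_Bl_mono the library with the highest sum had the lowest Itgax. In NMO_Br_mono the library with the lowest sum had the highest Itgax. Most of the sum was H2-Ab1, an MHC class II gene that is not particular to dendritic cells, with 987 CPM, 2297 CPM and 947 CPM in NMO_Br_mono. Ccr7 was at 0 in all brain libraries, and Xcr1 was at most 1.02 CPM there. Cd209a was 89.9, 301 and 114 CPM in NMO_Br_mono, with a mean of 168 CPM beside 51.2 CPM in NMO_Bl_mono and 60.8 CPM in Nor_Bl_mono. Zbtb46 was 27.4 CPM in NMO_Br_mono replicate 2 and 0 in its other libraries, and at most 9.35 CPM in blood. Flt3 averaged 17.4 CPM in NMO_Br_mono, between 9.36 CPM in NMO_Bl_mono and 29.6 CPM in Nor_Bl_mono. Their part in the Itgax values was not tested.

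The β chains showed no difference beyond their spread between the NMO groups. Itgb1 (gene ID 16412, chromosome 8, 128685654 to 128733579) was 355, 326 and 288 CPM in Nor_Bl_mono, 385, 312 and 161 CPM in NMO_Bl_mono and 330.5, 273 and 246 CPM in NMO_Br_mono. Its log2 fold change between NMO_Br_mono and NMO_Bl_mono was -0.015 (95% interval -0.98 to 0.95), an interval that still holds a change of nearly 2-fold either way. Over the 9 libraries its coefficient of variation was 22.3%, below that of all but 68 of the 1435 genes with a mean of at least 100 CPM, whose median was 44.4%. Itgb2 (gene ID 16414, chromosome 10, 77530329 to 77565708) was 281, 287 and 614 CPM in Nor_Bl_mono, 209.7, 311 and 325 CPM in NMO_Bl_mono and 289, 214 and 357 CPM in NMO_Br_mono. The highest value belonged to 1 normal blood library and all other values lay between 209.7 and 357 CPM, which gave 0.024 as log2 fold change of NMO_Br_mono over NMO_Bl_mono (95% interval -0.97 to 1.02). Itgb7 (gene ID 16421, chromosome 15, 102215994 to 102233405) was 296, 218 and 277 CPM in Nor_Bl_mono, 297, 334 and 132 CPM in NMO_Bl_mono and 218, 176 and 163 CPM in NMO_Br_mono. The NMO groups overlapped through NMO_Bl_mono replicate 3, and the log2 fold change was -0.45 (SE 0.50, edgeR adjusted p = 1). Against Nor_Bl_mono it was -0.50 (SE 0.50), and the groups overlapped only through 1 library each, at 217.9 CPM in NMO_Br_mono and 217.8 CPM in Nor_Bl_mono.

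Shares within a library do not depend on the scaling between libraries, so the reads of the 4 α chains and of the 3 β chains were also compared as shares, an analysis added after the data were seen. The reads come from the 3′ ends of transcripts and say nothing of how many heterodimers a cell carries. Of the α chain reads in Nor_Bl_mono, Itga4 held 41.9%, 43.9% and 33.3%. Its share was 34.4%, 28.2% and 52.4% for NMO_Bl_mono and 4.82%, 12.7% and 11.4% for NMO_Br_mono. Itgam held 21.6% to 26.0% in the 6 blood libraries and 57.8%, 36.9% and 55.4% in the brain. Both shares separated brain from blood without overlap, but the 4 shares of a library add to 100%, so that a lower Itga4 share by itself raises that of Itgam. Itga4 averaged 9.65% ± 4.22 (SD, n = 3) in NMO_Br_mono against 38.3% ± 12.6 in NMO_Bl_mono, and Itgam 50.03% ± 11.5 against 24.4% ± 0.50. In both cases the two-sided exact permutation test gave p = 0.1, the smallest that 3 against 3 libraries allow, so these p-values cannot pass 0.05, and 21 such share comparisons were made. Itgal (26.5% ± 12.5 against 32.4% ± 9.39) and Itgax (13.9% ± 8.89 against 4.81% ± 3.73) overlapped between the NMO groups. Among the β chains, Itgb1 held 37.6% ± 4.85, Itgb2 37.8% ± 7.75 and Itgb7 24.6% ± 2.91 in NMO_Br_mono, beside 33.9% ± 8.66, 36.2% ± 14.9 and 29.9% ± 7.35 in NMO_Bl_mono, with exact permutation p-values of 0.7, 0.9 and 0.3.

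**Figure D3:**
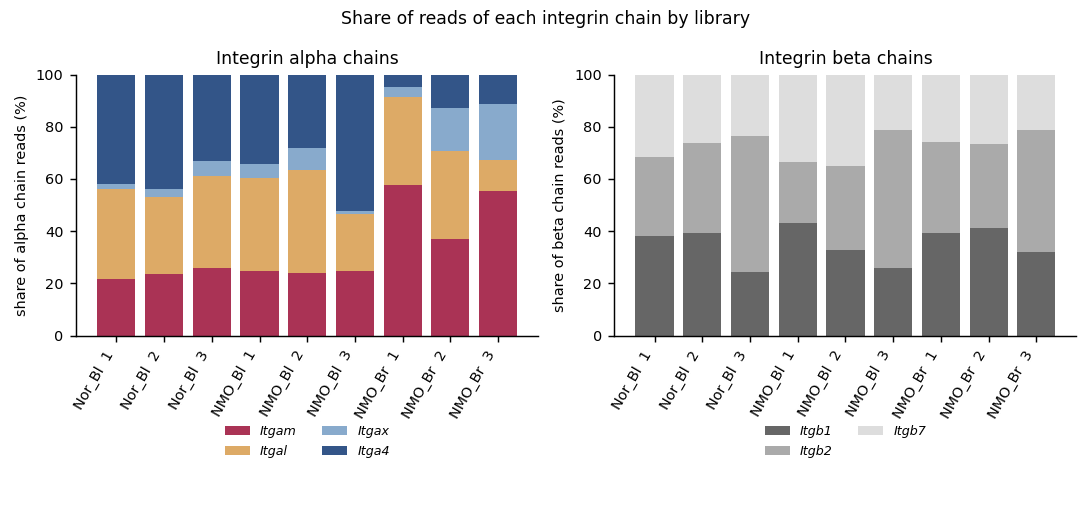
Share (%) of each integrin chain among the reads of the 4 α chains (left) and the 3 β chains (right) in each of the 9 libraries (x axis). Stacked bars start at 0 and add to 100%. The Itga4 segment takes 28.2% to 52.4% of the α reads in blood and 4.82% to 12.7% in the brain, while the β segments show no such step.

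Ratios of single chains are not bound by such a sum, and 5 of them were compared on a log2 scale. The log2 ratio of Itgam to Itgal reads, both partners of Itgb2, was 0.79, 0.12 and 2.20 in NMO_Br_mono and -0.55, -0.73 and 0.19 in NMO_Bl_mono, so that 1 library of each group overlapped. The means were 1.04 ± 1.07 and -0.36 ± 0.49 (SD, n = 3; exact permutation p = 0.2). Between the blood groups the means were -0.36 and -0.48 (exact permutation p = 0.9). The log2 ratio of Itga4 to its partner Itgb1 was added after the data were seen. It was -1.58 ± 0.90 in NMO_Br_mono and 0.89 ± 1.15 in NMO_Bl_mono, without overlap (exact permutation p = 0.1, the smallest possible). The log2 ratio of Itga4 to Itgam, added as well, was -2.47 ± 1.04 against 0.60 ± 0.43 (exact permutation p = 0.1). All brain libraries were lower in Itga4 and higher in Itgam than all blood libraries. The Itga4 to Itgam ratio therefore had to separate, and its p-value adds nothing to the values of the genes. The ratios of Itgam and of Itgal to their partner Itgb2 overlapped between the NMO groups. That of Itgam was 0.89 ± 0.32 in the brain and 0.24 ± 0.33 in blood (exact permutation p = 0.2), and that of Itgal was -0.15 ± 1.33 and 0.60 ± 0.62 (exact permutation p = 0.6).

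Selplg, the gene of PSGL-1 (gene ID 20345, chromosome 5, 113817798 to 113832528), was 306, 257 and 176 CPM in Nor_Bl_mono, 337, 314 and 8.36 CPM in NMO_Bl_mono and 185, 149 and 173 CPM in NMO_Br_mono. The brain libraries lay close together, whereas NMO_Bl_mono replicate 3, with 92 counts, stood far below all other libraries. With it, brain over blood in the model gave a log2 fold change of -0.38 (SE 0.85, edgeR adjusted p = 1). Without it, the log2 fold change was -0.93, with an unadjusted p of 0.0342 and an edgeR adjusted p of 0.677. Pecam1 (gene ID 18613, chromosome 11, 106654213 to 106715281) was 77.5, 52.8 and 5.62 CPM in Nor_Bl_mono, 86.1, 27.3 and 0 CPM in NMO_Bl_mono and 55.6, 82.6 and 29.6 CPM in NMO_Br_mono. The groups overlapped throughout, and NMO_Br_mono over NMO_Bl_mono came to 0.57 on the log2 scale with a 95% interval from -3.11 to 4.24, which does not limit the difference usefully. Its 0 in NMO_Bl_mono replicate 3 allows up to 0.273 CPM. PECAM-1 is also abundant on endothelium and platelets. The 8 endothelial markers summed to 5.11 to 41.5 CPM in NMO_Bl_mono and to 277 CPM, 98.3 CPM and 1453 CPM in NMO_Br_mono replicates 1 to 3. Within NMO_Br_mono, their order was the reverse of that of Pecam1. The platelet markers summed to 2125 CPM, 548 CPM and 306 CPM in Nor_Bl_mono replicates 1 to 3 and to 2007.5 CPM, 705 CPM and 354 CPM in NMO_Bl_mono, in both groups in the order of Pecam1. The number of genes detected had that order too, falling from 10669 to 7495 in Nor_Bl_mono and from 11556 to 4567 in NMO_Bl_mono. In NMO_Br_mono the platelet markers summed to 33.2, 39.8 and 25.8 CPM, again in the order of Pecam1. Mean Pecam1 there was 55.9 CPM, beside 37.8 CPM in NMO_Bl_mono and 45.3 CPM in Nor_Bl_mono. The part of either cell type in the Pecam1 values was not tested.

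Between NMO_Bl_mono and Nor_Bl_mono, the comparison that asks what the model does to monocytes still in the blood, 0 of the 9 genes passed an adjusted p of 0.05 in edgeR, DESeq2 or limma-voom, where 0% of all genes did in edgeR and 72 genes did in DESeq2. The unadjusted threshold was passed by 0 of 9 in edgeR (0.712% of all genes) and by 1 in limma-voom, Itga4 (487 of 10107 genes). Non-overlapping values were found for 0 of 9 (6.80% of all genes). The fitted values were lower for 8 and higher for 1 (Itgax, 0.37), with a median of -0.15 beside -0.16 over all genes. Itga4 had a log2 fold change of -0.15 with a 95% interval from -1.15 to 0.85. Between NMO_Br_mono and Nor_Bl_mono, edgeR called 0 of 9 (0.247% of all genes) and DESeq2 and the fit without NMO_Bl_mono replicate 3 called 1, Itga4. The unadjusted threshold was passed by 1 of 9 (5.82% of all genes), again Itga4, and 3 of 9 did not overlap (15.4% of all genes), with Itgam higher and Itgal and Itga4 lower. The median log2 fold change was -0.46 beside -0.12 over all genes. Both comparisons share libraries with the first, which the values above for each gene set side by side.

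**Figure D4:**
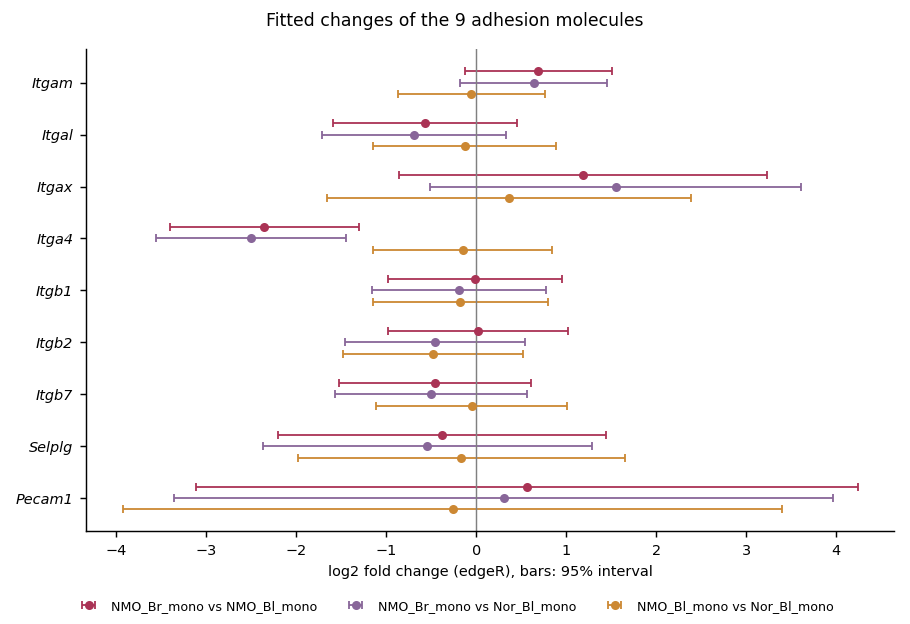
Fitted log2 fold change (x axis) of the 9 adhesion molecules (y axis) in the 3 comparisons, from edgeR on all 9 libraries, with bars for the 95% interval. Both comparisons of NMO_Br_mono with blood place Itga4 below 0 with intervals that do not reach it (-3.40 to -1.31 against NMO_Bl_mono), and all other intervals include 0.

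The other genes of leukocyte adhesion comprised 39 genes in 4 groups, of which 34 were tested. Between NMO_Br_mono and NMO_Bl_mono, 0 passed an adjusted p of 0.05 in edgeR, and 2 higher and 3 lower passed the unadjusted threshold, which 5.32% of all genes did. Of the 34, 17 were higher and 17 lower, with a median of -0.068 beside 0.051 over all genes. Of the 6 genes of rolling and glycan synthesis, 3 passed. Spn, which encodes the sialomucin CD43 of leukocytes, was 67.0, 55.7 and 54.3 CPM in NMO_Br_mono, while NMO_Bl_mono had 276, 267 and 349.8 CPM and Nor_Bl_mono had 269, 239 and 409 CPM. Its brain libraries lay far below all blood libraries. Against NMO_Bl_mono the log2 fold change was -2.33 (SE 0.50), with an unadjusted p of 0.000352 and an edgeR adjusted p of 0.0890. Lymphocytes and NK cells also express CD43, and the marker values given for Itga4 stand beside Spn as well. Within NMO_Br_mono, the NK and T cell markers summed to 29.2, 286 and 114 CPM in replicates 1 to 3. The library with the lowest sum had the highest Spn, but the Spn values of these libraries lay close together (59.0 ± 6.92 CPM, SD). The part of these cells in the Spn difference was not tested.

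Cd44, the hyaluronan receptor, was 1021.0 CPM, 1099.8 CPM and 1149.7 CPM in NMO_Br_mono and 571, 709 and 485 CPM in NMO_Bl_mono. The NMO groups did not overlap, and the log2 fold change was 0.89 (SE 0.30), with an unadjusted p of 0.0112 and an edgeR adjusted p of 0.716. In Nor_Bl_mono it was 739, 1024 and 1015 CPM, above all NMO_Bl_mono libraries, and Cd44 was the only one of the 34 past the unadjusted threshold between the blood groups, where 0.712% of all genes passed (log2 fold change -0.65, SE 0.30, unadjusted p of 0.0490, edgeR adjusted p of 1). That call was lost when any of Nor_Bl_mono replicates 2 and 3, NMO_Bl_mono replicates 1 and 3 or NMO_Br_mono replicate 3 was left out, each of which left 0 of these genes past the threshold. Between NMO_Br_mono and Nor_Bl_mono its log2 fold change was 0.24 (SE 0.30). B4galt1, a galactosyltransferase that builds the sugar chains of selectin ligands, was 148, 409 and 338 CPM in NMO_Br_mono and 66.0, 87.2 and 104 CPM in NMO_Bl_mono. All brain values lay above all blood values, for a log2 fold change of 1.80 (SE 0.60), with an unadjusted p of 0.00993 and an edgeR adjusted p of 0.678.

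Among the 9 other integrin subunits, 7 were tested and 1 passed the unadjusted threshold, where 5.32% of all genes did. Itga2, the α2 chain of a collagen receptor found on platelets, NK cells and T cells, had 0 counts in all 3 NMO_Br_mono libraries, whereas NMO_Bl_mono had 26.6, 19.4 and 33.5 CPM and Nor_Bl_mono had 13.1, 10.8 and 62.1 CPM. Taking the limit of 3 counts per library, it was at least 86.1-fold lower than in NMO_Bl_mono (edgeR unadjusted p of 0.0040 and adjusted p of 0.426). The platelet chains Itga2b and Itgb3 were at 0 in 2 of 3 NMO_Br_mono libraries each, with log2 fold changes of -3.04 (SE 2.33) and -3.65 (SE 2.32). Both are on the platelet marker list as well. Among the 10 counter-receptors and junctional molecules, 7 were tested and 0 passed. Icam1, the ligand of LFA-1 and Mac-1, was 60.8, 64.3 and 70.3 CPM in NMO_Br_mono and 111, 132 and 0 CPM in NMO_Bl_mono, so that the log2 fold change was -0.31 (SE 1.48). Vcam1, the ligand of VLA-4, did not pass the filter, with 0 counts in 7 of 9 libraries and at most 14.7 CPM.

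All 14 adaptors of integrin activation were tested, 5 higher and 9 lower in NMO_Br_mono than in NMO_Bl_mono. The unadjusted threshold was passed by 1, where 5.32% of all genes passed. Rassf5, also called RAPL, which couples the GTPase Rap1 to LFA-1, was 139.6, 87.1 and 36.2 CPM in NMO_Br_mono and 211, 271 and 243 CPM in NMO_Bl_mono. All brain values lay below all blood values, for a log2 fold change of -1.46 (SE 0.58), with an unadjusted p of 0.0240 and an edgeR adjusted p of 0.802. Its unadjusted call was lost without NMO_Bl_mono replicate 2 and without NMO_Br_mono replicate 3. Talin (Tln1) and kindlin-3 (Fermt3), which bind integrin tails to switch them on, had log2 fold changes of -0.40 and 0.21 and overlapped between the groups. Against Nor_Bl_mono, 4 of the 34 passed the unadjusted threshold, B4galt1 higher and Spn, Itga2 and Rassf5 lower, where 5.82% of all genes passed. With single libraries left out, Spn and Itga2 passed each time, B4galt1 was lost without Nor_Bl_mono replicate 2 or NMO_Br_mono replicate 2, and Rassf5 passed only without NMO_Bl_mono replicate 3 or NMO_Br_mono replicate 1.

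**Figure D5:**
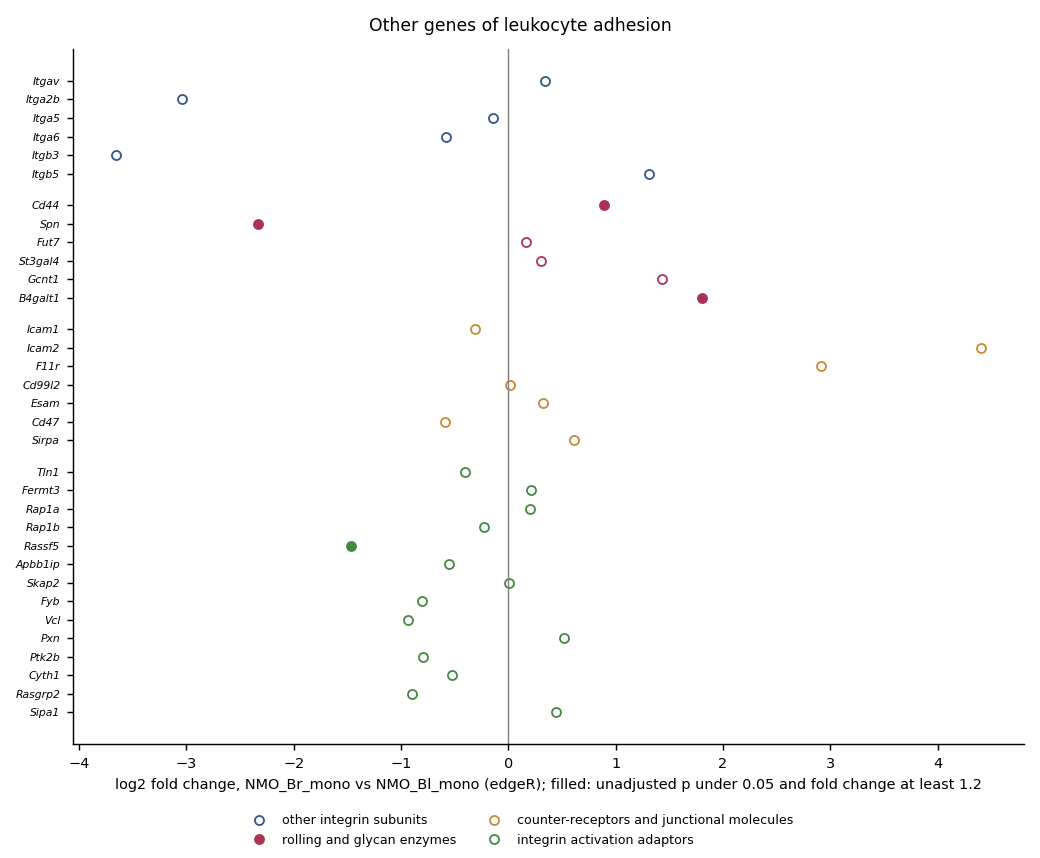
Fitted log2 fold change between NMO_Br_mono and NMO_Bl_mono (x axis) of the other genes of leukocyte adhesion (y axis, in 4 groups by color) that were tested. Filled points passed an unadjusted p of 0.05 with a fold change of 1.2. Itga2 is left out, since its NMO_Br_mono libraries are all at 0. The filled points are Cd44 and B4galt1 above 0 and Spn and Rassf5 below it.

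The genes whose pattern over the 9 libraries was most like that of each of the 9 were sought among those with a mean of at least 50 CPM, by Pearson correlation of log2(CPM + 1). The 9 libraries share 3 groups and unequal depth of detection, and the values are descriptions. For Itga4 it was Ets1, a transcription factor abundant in lymphocytes (0.97), and for Itgam the ribosomal protein gene Rps6 (0.92). For the other chains it was Cggbp1 for Itgal (0.97), Ndufs6 for Itgax (0.94), Tuba1c for Itgb1 (0.98), Nufip2 for Itgb2 (0.90) and Mgea5 for Itgb7 (0.96). Acin1 was nearest to Selplg (0.99) and Taok3 to Pecam1 (0.97).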

How the data were processed

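Counts of 9 libraries of sorted monocytes, 3 per group, were analysed. Per the study's methods, the authors prepared QuantSeq 3′ mRNA libraries, aligned single-end reads with Bowtie2 (build mm10 per the submitters' processing notes; versions not given in the sources used here) and used Bedtools to count alignments over genes, those of reads with several alignments included. They deposited raw read counts per gene symbol, before their TMM and CPM normalization. Reads of near-identical genes are therefore shared, and reads of overlapping genes may be.

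Groups came from the sample labels. Each library lists 23282 entries, and of the entries of each of 35 repeated symbols, that with the highest count was used. In R 4.3.3, edgeR 4.0.16 (filterByExpr, TMM factors, glmQLFit and glmQLFTest) was fitted to all 9 libraries, with Benjamini-Hochberg adjustment over 10107 genes. Scripts were tested on simulated data. Shares and ratios (0.5 added to both counts) were compared with two-sided exact permutation tests. The p-values measure the spread between the pooled libraries of a group. The genes named were all 9 members, other adhesion genes with an unadjusted p under 0.05, Icam1, Vcam1 and Cd44, and the nearest gene by correlation. Itga2b, Itgb3, Tln1 and Fermt3 were named after their values were seen, as were the single marker genes. One gene of the adhesion list is not reported here. The members and gene lists were chosen with earlier results of these data known.

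The alternatives were RLE or TMMwsp factors, library size alone, no Rn45s, no filter, at least 10 counts in every library, repeated symbols summed, a fit of only 2 groups at a time, a replicate block, DESeq2 1.42.0, limma-voom (limma 3.58.1) with sample weights, a ratio pseudocount of 5, and each replicate left out. Leaving out the libraries with the fewest genes detected was added after seeing the data. Promoter windows, gene positions and gene IDs came from RefSeq tables of GRCm38.p6, the build named mm10 in the labels. Figures were drawn with matplotlib 3.10.9.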

Additional observations from a re-analysis of the deposited data

How the results depend on the processing

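The Itga4 log2 fold change kept its sign against NMO_Bl_mono (-2.53 to -2.30 over 11 settings, edgeR, DESeq2 or limma-voom adjusted p from 0.00141 to 0.338; -2.66 to -1.99 with replicates left out, adjusted p from 0.0586 to 0.223, the fit without 2 libraries included). Members with an adjusted p under 0.05 numbered 1 (Itga4) in place of 0 with no filter, with at least 10 counts in every library and with DESeq2, against either blood group, and 0 to 1 with replicates left out against Nor_Bl_mono. Against both blood groups the count was 0 to 1 with replicates left out. Members past the unadjusted threshold against NMO_Bl_mono numbered 2 with the strict filter, 4 with limma-voom and 1 to 3 with replicates left out. Over all genes tested, 279 of 2396, 1274 of 10107 and 374 to 754 of 10728 to 11240 passed under these settings. Against Nor_Bl_mono the members past it numbered 2, 3 and 1 to 2 under the same settings, beside 280, 1129 and 372 to 1073 of all genes tested. Between blood groups 1 member passed with limma-voom, beside 487 of 10107 genes. Of the other adhesion genes, 0 passed between blood groups with RLE factors, library size alone, no filter, only the groups compared or DESeq2, 2 with limma-voom and 0 to 1 with replicates left out. Over all genes tested, 37 to 244, 487 and 42 to 146 passed in the same order. Against Nor_Bl_mono 8 of the other adhesion genes passed with limma-voom and 2 to 8 with replicates left out, beside 1129 and 372 to 1073 of all genes tested. Over all genes, adjusted calls between the NMO groups numbered 25 as reported, 16 with the strict filter, 110 with no filter, 7 with only the groups compared, 334 with DESeq2 and 51 with limma-voom. Under limma-voom the median over all genes was -0.65 in place of 0.051 between the NMO groups, 0.18 in place of -0.16 between blood groups and -0.43 in place of -0.12 against Nor_Bl_mono, and its fold changes stand against that shift. The cause of these differences was not tested.

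The following values turned in sign. Between NMO_Br_mono and NMO_Bl_mono, Itgb1 was 0.063 with RLE factors, 0.068 with TMMwsp, 0.045 with the strict filter, 0.045 with the replicate block and 0.063 with DESeq2, and -0.29 to 0.26 with replicates left out. Itgb2 was -0.16 with library size alone, -0.010 with no filter and -0.15 to 0.33 with replicates left out. Selplg was 0.13 with the block and -0.93 to 0.064 with replicates left out, and Pecam1 -0.012 with limma-voom and -0.40 to 2.03. Between blood groups, Itgam was 0.024 with RLE factors or DESeq2 and 0.17 with library size alone. Library size alone also gave 0.030 for Itgal, 0.18 for Itga4 and 0.066 for Itgb7, and limma-voom gave 0.030 for Itgal, 0.048 for Itgb1, 0.30 for Itgb7 and 0.24 for Selplg. With replicates left out, the values between blood groups ran from -0.14 to 0.060 for Itgam, -0.28 to 0.063 for Itgal, -0.29 to 0.85 for Itgax, -0.50 to 0.049 for Itga4, -0.45 to 0.11 for Itgb1, -0.29 to 0.26 for Itgb7, -0.61 to 0.41 for Selplg and -1.73 to 0.37 for Pecam1. Against Nor_Bl_mono, Pecam1 was -0.074 with limma-voom and -0.21 to 0.93 with replicates left out, and Itgb2 -0.65 to 0.030. The difference in the Itgam to Itgal log2 ratio between blood groups was -0.16 to 0.30 with replicates left out, negative only without NMO_Bl_mono replicate 3.

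The deviations of same-numbered libraries correlated at -0.010 to 0.12, and 7 of 9 libraries correlated best with a library of their own number. Replicate 1 had the highest Rn45s share of each group (43.6% in Nor_Bl_mono, 42.2% in NMO_Bl_mono and 39.3% in NMO_Br_mono). It also had the lowest TMM factor of each (0.800, 0.831 and 0.855 in the same order). Whether the replicate numbers mark pairs or batches was not tested. With the replicate block the Itga4 log2 fold change was -2.42 (edgeR adjusted p = 0.0944) against NMO_Bl_mono. Pecam1 could not be fitted under the strict filter, and the mean of both blood groups has no value when only 2 groups are used. Pecam1 had 0 counts in NMO_Bl_mono replicate 3, whose limit of 0.273 CPM for 3 counts was the lowest of all libraries.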
